A study of Mus musculus with 82 samples.

Results

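The enzymes that build cholesterol and fatty acids, the SREBP proteins that switch their genes on, a sterol carrier and the LXR receptors with their sterol efflux targets were followed in the mRNA of mouse blood stem and progenitor cells. The genes were chosen by symbol and make up 37 of the 55376 genes counted. All 37 were found: 18 enzymes of sterol synthesis, 5 genes of the SREBP system, the carrier Stard4, 8 genes of fatty acid synthesis and 5 genes of LXR signalling and sterol efflux. Every one of them passed the filter on low counts in every comparison, so no gene is missing from the counts below.

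Cholesterol is made from acetyl-CoA through mevalonate, farnesyl diphosphate, squalene and lanosterol, and each step has its own enzyme. When membranes of the endoplasmic reticulum run low in sterol, Scap escorts SREBP proteins, the products of Srebf1 and Srebf2, to the Golgi, where cleavage frees the part that enters the nucleus and activates genes of sterol and fatty acid synthesis. Insig1 and Insig2 hold Scap back when sterol is plentiful. LXR, encoded by Nr1h2 and Nr1h3, senses oxidised sterols and activates the efflux pumps Abca1 and Abcg1 and the ubiquitin ligase Mylip. In blood, sterol supply and efflux bear on how stem and progenitor cells proliferate.

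Hematopoietic stem cells (HSCs), the self-renewing cells at the origin of the blood, were sorted from the bone marrow of male wild-type C57BL/6J mice labelled young or old as LSK CD34- Flk2- CD150+ cells. For freshly sorted cells there were 4 mRNA-seq libraries of young HSCs, each from pooled mice, and 8 of old HSCs, each from an individual mouse, so the young libraries leave out part of the spread between animals. Old HSCs were also cultured in a medium based on F12 with polyvinyl alcohol, thrombopoietin and stem cell factor and infected with lentivirus carrying GFP and an shRNA, which was either a control or one of a pair (shRNA1 and shRNA2) aimed at the short form of Btaf1, a regulator of transcription. GFP+ cells were profiled after culture (2 libraries for each shRNA), and LSK CD48- CD150+ donor HSCs (CD45.2+) were profiled from irradiated recipient mice (CD45.1) after transplantation (2 libraries for each shRNA). Wild-type progenitors from young mice were of 3 kinds, with 2 libraries each: common myeloid progenitors (CMP), granulocyte-monocyte progenitors (GMP) and megakaryocyte-erythroid progenitors (MEP). ATAC-seq, which reads how open chromatin is, was followed in 4 young and 4 old HSC libraries, and ChIP-seq for the active mark H3K27ac in 2 at each age. The paper's ATAC-seq had 8 old samples, and only old replicates 5 to 8 were used here. Each library of transplanted HSCs was pooled from several recipients. The sources do not say that the cultured shRNA or progenitor libraries came from separate cultures or animals, so p-values there measure the spread between these libraries, which may be technical.

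The 30 mRNA-seq libraries held from 20475764 to 42737054 gene reads each, and the deepest were those of cultured and transplanted HSCs. Labels name one RNA-seq kit for fresh HSCs and progenitors and another for the cultured and transplanted HSCs, while the methods give other kits, extractions and sequencers, so kit and run cannot be told apart from the experiment wherever fresh and cultured cells are set side by side. Levels are given as CPM, the reads of a gene scaled to library size on the TMM scale of edgeR, errors after ± are standard deviations between libraries, and a gene is called at an adjusted p below 0.05 in edgeR's quasi-likelihood test with Benjamini-Hochberg adjustment over all genes tested. In these bulk samples, fewer cells of a type and less RNA per cell cannot be told apart. Markers fixed for the HSC label summed to 4526 ± 101 CPM in young and 4492 ± 171 CPM in old HSCs, against 1331 ± 8.40 CPM in CMP. Counting by exon may mix some neighbours, since the strand setting is not given: 12.1% of Hmgcs1 exon bases lie on those of the antisense gene Gm48342, 26.7% of Fdps on Gm43738, 18.3% of Fdft1 on Ctsb, 13.2% of Scap on 5830462I19Rik and 12.1% of Tm7sf2 on Vps51, and Acat2 has the near-identical copy Acat3.

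In young HSCs the highest levels per kilobase of exon were those of a few fatty acid genes and of Srebf2, while other fatty acid genes, such as Fasn at 15.7 and Acaca at 2.01 CPM per kb, lay in the range of the sterol enzymes. Scd2, a desaturase that makes monounsaturated fatty acids, stood at 53.1 ± 4.93 CPM per kb (SD, n = 4). It was followed by the polyunsaturated fatty acid desaturase Fads2 at 50.7 ± 3.30, by Acly, which makes cytosolic acetyl-CoA, at 50.6 ± 3.07, and by Srebf2 at 49.8 ± 1.65 CPM per kb. These neighbours in the order lay within their spread of each other. Among sterol enzymes the highest was Acat2, the thiolase of the first step, at 16.3 ± 1.16 CPM per kb, followed by squalene epoxidase Sqle at 12.3 ± 0.767 and the lanosterol demethylase Cyp51 at 11.6 ± 0.692. Lanosterol synthase Lss (3.23 ± 0.267), Hsd17b7 (1.84 ± 0.293) and farnesyl diphosphate synthase Fdps (1.25 ± 0.155 CPM per kb) were near the bottom. The order changed in culture, where HMG-CoA synthase Hmgcs1, which commits carbon to the pathway, reached 305 ± 0.180 CPM per kb (SD, n = 2), second to Scd2 at 396 ± 6.14, having been at 9.71 ± 1.07 in young HSCs. Summed over the 18 sterol enzymes, expression was 541 ± 27.5 CPM in young HSCs, 439 ± 30.2 CPM in old HSCs and 6698 ± 133 CPM in cultured control HSCs.

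**Figure D1:**
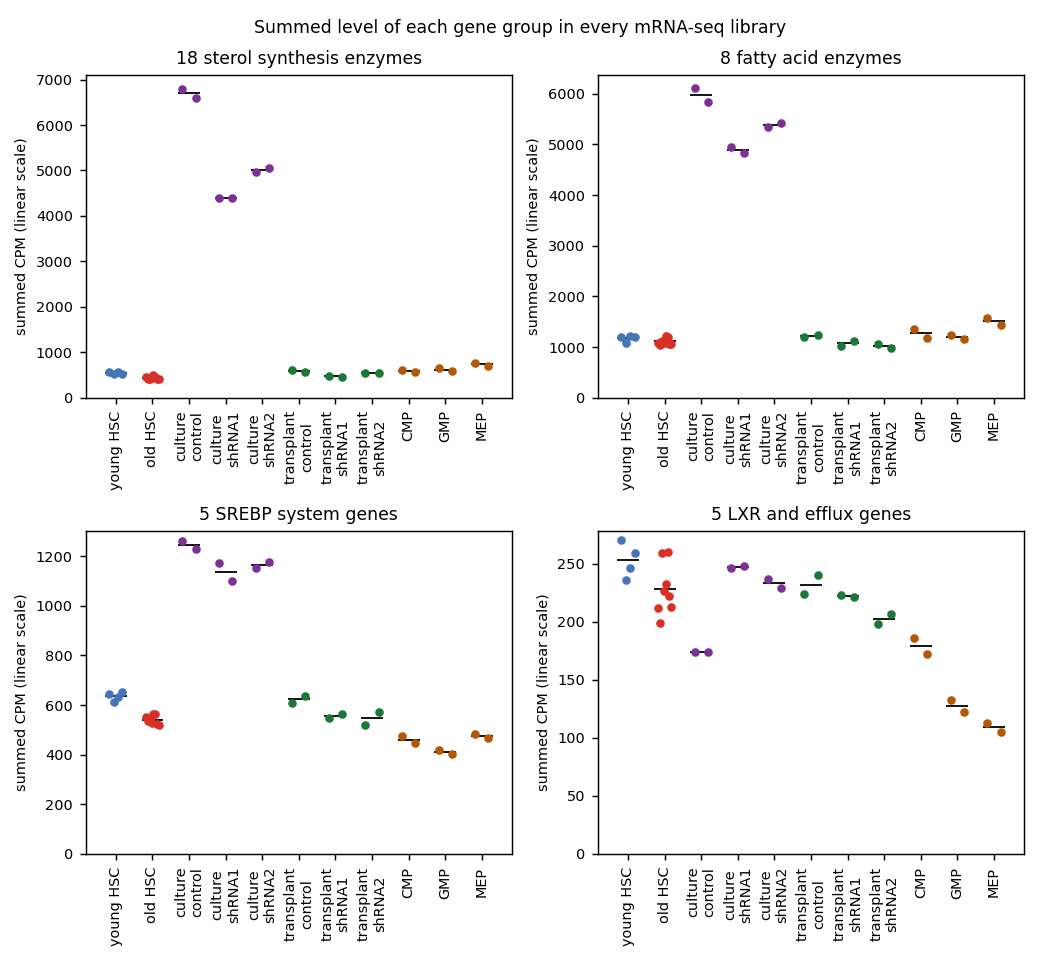
Summed CPM of each group of genes (vertical axes, linear) in every mRNA-seq library, shown as a point per library in each of the 11 sample groups, with a bar at the group mean. The cultured libraries stand far above all others for sterol enzymes (6698 CPM in the control against 439 in fresh old HSCs) and for fatty acid genes (5984 against 1110.5 CPM), while the sum of the LXR and efflux genes is lowest in MEP at 109 CPM.

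Promoters are shown for 4 sterol enzymes that carry the results below, with the efflux pump Abca1 as a gene that moved against them in culture. Each line gives the 200 bases before the RefSeq start of transcription (build GRCm38.p6), 5′ to 3′ on the strand of the gene. Capitals mark 3 motifs searched on both strands: the sterol regulatory element of SREBP, spelled TCACNCCAC, the NF-Y box, spelled CCAAT and read from the other strand as ATTGG, and the Sp1 box, spelled GGGCGG and read from the other strand as CCGCCC.
Hmgcs1 (chr13:119690151-119690350, plus strand): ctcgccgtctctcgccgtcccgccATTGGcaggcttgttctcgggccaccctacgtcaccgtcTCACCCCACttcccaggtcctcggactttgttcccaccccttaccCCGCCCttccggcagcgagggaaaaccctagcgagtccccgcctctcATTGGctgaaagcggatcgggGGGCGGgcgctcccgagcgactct
Lss (chr10:76531405-76531604, plus strand): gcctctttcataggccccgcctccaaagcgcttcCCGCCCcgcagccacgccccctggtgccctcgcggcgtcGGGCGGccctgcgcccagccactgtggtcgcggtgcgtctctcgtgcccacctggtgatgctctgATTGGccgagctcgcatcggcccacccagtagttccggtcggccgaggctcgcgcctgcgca
Idi1 (chr13:8885406-8885605, plus strand): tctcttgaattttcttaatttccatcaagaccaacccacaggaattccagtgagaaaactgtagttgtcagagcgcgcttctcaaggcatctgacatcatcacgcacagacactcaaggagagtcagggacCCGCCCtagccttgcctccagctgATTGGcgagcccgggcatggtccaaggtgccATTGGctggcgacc
Hsd17b7 (chr1:169969206-169969405, minus strand): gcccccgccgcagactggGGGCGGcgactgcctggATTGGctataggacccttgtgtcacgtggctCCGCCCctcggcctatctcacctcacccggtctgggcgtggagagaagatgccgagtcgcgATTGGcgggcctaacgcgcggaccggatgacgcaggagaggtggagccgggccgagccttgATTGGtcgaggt
Abca1 (chr4:53159896-53160095, minus strand): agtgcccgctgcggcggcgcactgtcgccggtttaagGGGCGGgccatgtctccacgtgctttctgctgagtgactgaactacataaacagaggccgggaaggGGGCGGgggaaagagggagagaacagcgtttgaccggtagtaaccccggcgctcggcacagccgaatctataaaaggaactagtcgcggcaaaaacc
The stretch printed for Hmgcs1 held the sterol regulatory element once, 137 to 129 bases before the start, with 2 NF-Y boxes and 2 Sp1 boxes around it. Its 300-base promoter in RefSeq's table held 4 and 3. The stretch printed for Lss held 1 NF-Y box and 2 Sp1 boxes, that of Idi1, which makes the isoprenoid building block, 2 and 1, and that of Hsd17b7, a keto reductase of late sterol synthesis, 3 and 2. Abca1 showed 2 Sp1 boxes and no match to the NF-Y letters in this window. In the 300-base promoters that RefSeq's table gives for 29 of the 37 genes, the NF-Y letters were found in 21, or 72.4%, against 41.1% of 27025 genes. The Sp1 letters occurred in 23, or 79.3%, against 38.2%. Of the 15 sterol enzymes in the table, 14 held the NF-Y letters (all but Acat2) and 14 the Sp1 letters (all but Pmvk). Hmgcs1 was the only gene of the 29 with a match to TCACNCCAC, which 1.44% of genes hold. These are matches of letters, and binding was not measured. The 27025 genes were not limited to those expressed in these cells, so the shares do not show what sets the lipid genes apart from other expressed genes. The promoters of Fdps, Fdft1, Sqle, Stard4, Scd1, Scd2, Fads1 and Abcg1 were not in the table.

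The first comparison asked how the pathway differed between old and young HSCs. Sterol synthesis was lower at most of its steps in old HSCs: 11 of 18 enzymes fell, none rose and 7 did not pass the test, with a median log2 fold change of -0.28 against -0.0073 over all genes tested. The changes were small, and none of the 11 exceeded 1.5-fold. Across all 37 genes 3 rose, where 11.9% of the 21522 genes tested were called higher, and 16 fell, where 8.67% were called lower. Fatty acid genes were divided, with 2 risen, 1 fallen and 5 not passing (median 0.016), and the SREBP system had 0 risen and 2 fallen of 5.

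Idi1 fell most among the enzymes. It read 15.5, 14.7, 15.9 and 13.1 CPM in the young libraries and from 9.02 to 11.7 CPM with a median of 10.2 in the 8 old libraries (log2 fold change -0.50, SE 0.083, adjusted p = 7.48e-05). Msmo1, which removes methyl groups from lanosterol, read 53.5, 48.1, 55.6 and 44.4 CPM in young and 29.3 to 45.0 CPM, median 34.0, in old HSCs (log2 fold change -0.46, SE 0.11, adjusted p = 0.0052). Old cells held 1.41-fold less Idi1, with no overlap between the ages, and 1.38-fold less Msmo1, whose ranges overlapped at one edge. Cyp51 stood at 51.2, 49.2, 55.5 and 48.8 CPM in young HSCs and at 33.2 to 42.4 CPM, median 35.9, in old ones (log2 fold change -0.44, SE 0.066, adjusted p = 1.66e-05). Sqle stood at 70.2, 64.5, 73.5 and 65.2 CPM and at 44.8 to 60.0 CPM, median 50.2 (log2 fold change -0.40, SE 0.073, adjusted p = 0.000361). Hsd17b7 was a low gene, at 8.82, 11.3, 9.68 and 7.74 CPM in young and 5.54 to 8.48 CPM, median 6.95, in old HSCs, and its groups overlapped (log2 fold change -0.43, SE 0.12, adjusted p = 0.0125). The other enzymes that fell were Mvd (-0.36), Lss (-0.31), Sc5d (-0.30), Nsdhl (-0.28), Hmgcs1 (-0.28) and Dhcr7 (-0.22), all as log2 fold changes.

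The regulator of the group moved the same way. Srebf2, the SREBP gene most tied to sterol synthesis, read 364, 342, 355 and 369 CPM in the 4 young libraries and 258 to 283 CPM, median 273, in the old ones, with no overlap (log2 fold change -0.38, SE 0.035, adjusted p = 1.48e-08). Of the 37 genes it had the lowest p. Srebf1, more tied to fatty acid synthesis, fell from 84.7, 81.3, 89.3 and 89.1 CPM to 72.9 to 81.4 CPM, median 76.7 (log2 fold change -0.14, SE 0.043, adjusted p = 0.0204). Insig1 read 48.5 ± 4.05 CPM in young and 44.6 ± 4.98 CPM in old HSCs (log2 fold change -0.10, SE 0.078, adjusted p = 0.462) and did not pass. Stard4, which carries cholesterol between membranes, fell as well (log2 fold change -0.33, SE 0.05, adjusted p = 1.96e-05).

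Among fatty acid genes the desaturases went apart. Scd2 fell from 305, 257, 318 and 281 CPM in young HSCs to 159 to 252 CPM, median 210.0, in old HSCs (log2 fold change -0.46, SE 0.10, adjusted p = 0.00721). Fads2 rose from 168, 151, 173 and 176 CPM to 192 to 252 CPM, median 209.7 (log2 fold change 0.39, SE 0.062, adjusted p = 8.11e-05), and Fads1, the next desaturase of the same route, rose by less (log2 fold change 0.17, SE 0.048, adjusted p = 0.0134). Scd2 and the Fads genes thus moved in opposite directions with age, although Scd2 (adjusted p = 0.092) and Fads1 (adjusted p = 0.177) were not called in edgeR without the 2 young libraries highest in B-cell markers, where Fads2 still was. Acly, Acaca, Fasn, Scd1 and Elovl6, the core of the pathway from acetyl-CoA to long chains, lay between -0.17 and 0.21 and did not pass.

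Nr1h3, the LXR gene of macrophages and liver, was the only gene of the 37 to change by more than 1.5-fold. It stood at 3.82, 4.16, 5.22 and 5.86 CPM in young and 6.89 to 9.14 CPM, median 8.04, in old HSCs (log2 fold change 0.77, SE 0.12, adjusted p = 2.98e-05). Its partner Nr1h2, expressed in most cells, differed by 0.051 (95% interval -0.042 to 0.14) on the log2 scale. Mylip fell (log2 fold change -0.22, SE 0.077, adjusted p = 0.0485). Abca1 was at 66.7 ± 6.07 CPM in young and 50.0 ± 8.93 CPM in old HSCs and Abcg1 at 72.6 ± 8.48 and 64.8 ± 9.47 CPM, and neither passed (adjusted p = 0.0607 and 0.426 in edgeR). Of 39 further genes of lipid metabolism, 8 rose, 7 fell and 24 did not pass, with a median of -0.017 and a range from -1.40 to 2.66. The widest change there was in Vldlr, the very low density lipoprotein receptor (log2 fold change 2.66, adjusted p = 0.000101). Lpin1, an enzyme of triglyceride synthesis, was among the 7 that fell (log2 fold change -0.50, adjusted p = 6.56e-08), but was not the 1 gene that fell by more than 1.5-fold.

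The marker lists showed other differences between these libraries. B-cell markers summed to between 65.1 and 114 CPM in the young libraries and between 29.7 and 36.5 CPM in the old ones, with 5 of 5 lower in old HSCs. Erythroid markers summed to 135 to 197 CPM against 24.6 to 87.0 CPM, and 4 of 5 fell while the fifth, Hba-a1, rose (log2 fold change 2.98), whereas megakaryocyte markers summed to 425 to 461 CPM against 784 to 1100.5 CPM, and 4 of 5 rose. Myeloid markers summed to 109.7 to 135 CPM against 250.5 to 304 CPM, with no overlap, and of the 4 tested 1 rose and 1 fell. Macrophage markers summed to 37.6 to 53.1 CPM in young and 26.3 to 113 CPM in old libraries. Proliferation markers were at 212 ± 14.3 CPM in young and 169 ± 31.3 CPM in old HSCs. Without the 2 young libraries highest in B-cell markers, which leaves 2 of the 4, 8 of the 37 genes fell in place of 16, 6 of them sterol enzymes. Some log2 fold changes stayed near their values, going from -0.50 to -0.52 for Idi1, -0.44 to -0.41 for Cyp51 and -0.38 to -0.36 for Srebf2. Others did not, as Srebf1 went from -0.14 to -0.081 (edgeR adjusted p = 0.543) and Nr1h3 from 0.77 to 1.03. Fads1 (0.17, adjusted p = 0.177) and Scd2 (-0.41, adjusted p = 0.092) lost their calls in edgeR without those libraries. The smaller number of libraries and their B-cell level cannot be told apart in that count. The part of these other cells in the results was not tested.

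The second comparison asked what knockdown of the short Btaf1 form did in cultured old HSCs. Gene counts pool both Btaf1 transcripts. Btaf1 read between 149 and 153 CPM in the control libraries, between 117 and 127 CPM with shRNA1 and between 121 and 123 CPM with shRNA2, so all 4 knockdown libraries lay below both controls (log2 fold change -0.31, adjusted p = 0.00151 in edgeR).

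Sterol synthesis fell broadly in the cultured knockdown cells. Of 18 enzymes 14 fell, 0 rose and 4 did not pass, with a median log2 fold change of -0.46 against 0.0038 over all genes, and 6 of them fell by more than 1.5-fold. The 4 that did not pass were Fdft1 (-0.45), Nsdhl (-0.47), Dhcr7 (-0.44) and Ebp (-0.042). With each shRNA as a group of its own, Fdft1 was at -0.60 with shRNA1 and -0.30 with shRNA2, Nsdhl at -0.63 and -0.33 and Dhcr7 at -0.59 and -0.30, and each of these passed (largest edgeR adjusted p = 6.58e-05), whereas Ebp passed with neither. Over the 37 genes, 3 rose where 1.7% of the 19763 genes tested were called higher, and 20 fell where 1.66% were called lower. Those 3 were the efflux genes Abca1 and Abcg1 and the ligase Mylip. Summed over the enzymes, the level was 6698 ± 133 CPM in the control, 4389 ± 5.26 CPM with shRNA1 and 5014 ± 59.0 CPM with shRNA2 (SD, n = 2). The number of calls changed with the controls, though a single control left has no spread of its own and is taken to vary like the shRNA libraries: without control replicate 1 there were 12 of the 37 genes lower, 9 of them sterol enzymes, and without control replicate 2 there were 9, of which 8 were sterol enzymes.

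Hmgcs1 read 1402 and 1401 CPM in the controls, 801 and 804 CPM with shRNA1 and 946 and 992 CPM with shRNA2 (log2 fold change -0.66, SE 0.10, adjusted p = 0.0431). Lss read 714 and 649 CPM, 375 and 396 CPM and 435 and 451 CPM in the same order (log2 fold change -0.72, SE 0.075, adjusted p = 0.00241). In both genes the shRNA1 libraries were lowest and the controls highest, with no overlap between control and knockdown. The call of Hmgcs1 was lost without control replicate 1 (edgeR adjusted p = 0.278) or 2 (0.248), shRNA1 replicate 2 (0.0597) or shRNA2 replicate 1 (0.0536), and also with a replicate block (0.0768) or no filter on low counts (0.0861). Its log2 fold change stayed between -0.72 and -0.62 whichever library was left out. Mvd, which makes isopentenyl diphosphate, went from 130.2 and 123 CPM in the controls to 76.1 and 74.9 CPM with shRNA1 and 93.9 and 89.4 CPM with shRNA2 (log2 fold change -0.60, SE 0.089, adjusted p = 0.00604). Mevalonate kinase, Mvk, went from 53.9 and 58.0 CPM to 36.8 and 31.3 CPM and 42.2 and 36.9 CPM (log2 fold change -0.60, SE 0.10, adjusted p = 0.00365). Hsd17b7 went from 68.9 and 64.4 CPM to 41.8 and 40.0 CPM and 39.5 and 44.9 CPM (log2 fold change -0.68, SE 0.069, adjusted p = 6.62e-05). The sterol reductase Tm7sf2 had the largest drop of the enzymes, from 57.0 and 59.7 CPM to 32.4 and 35.5 CPM and 38.4 and 33.3 CPM (log2 fold change -0.74, SE 0.076, adjusted p = 7.19e-05). Without control replicate 1 or 2 in turn, the log2 fold change was -0.56 and -0.64 for Mvd, -0.66 and -0.55 for Mvk and 0.82 and 0.48 for Mylip. That of Insig1 was -0.31 without replicate 2. These calls were lost in fits where the single control left has no spread of its own. Taken singly, shRNA1 and shRNA2 gave log2 fold changes of -0.81 and -0.54 for Hmgcs1, -0.82 and -0.62 for Lss and -0.70 and -0.66 for Hsd17b7, both against the same 2 controls. The antisense Gm48342, whose exons overlap those of Hmgcs1, was at 339 CPM in the control, 192 CPM with shRNA1 and 235 CPM with shRNA2 on average, and, as the use of strand in counting is not stated, their reads cannot be told apart.

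The genes of sterol efflux went the other way. Abca1, which loads cholesterol onto lipid-poor particles, read 16.6 and 15.8 CPM in the controls, 46.9 and 44.0 CPM with shRNA1 and 39.9 and 34.3 CPM with shRNA2 (log2 fold change 1.35, SE 0.12, adjusted p = 6.19e-05), a 2.54-fold rise. Abcg1, which exports sterol to mature lipoproteins, read 50.7 and 48.6 CPM, 78.0 and 81.3 CPM and 81.7 and 78.7 CPM (log2 fold change 0.69, SE 0.059, adjusted p = 1.94e-05). Mylip read 13.1 and 10.3 CPM, 18.2 and 21.5 CPM and 16.3 and 16.8 CPM (log2 fold change 0.64, SE 0.13, adjusted p = 0.0179). No knockdown library overlapped a control for any of the 3 genes. The receptors themselves did not pass: Nr1h2 was at 0.06, adjusted p = 0.653, and Nr1h3, at 1.84 ± 0.00323 CPM in the control, at 0.29, adjusted p = 0.689 (edgeR).

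Neither SREBP gene passed. Srebf2 read 590.5 and 564 CPM in the controls, 552 and 521 CPM with shRNA1 and 532 and 536 CPM with shRNA2 (log2 fold change -0.11, SE 0.037, adjusted p = 0.141), and Srebf1 read 218 and 206, 219 and 205 and 236 and 229 CPM (log2 fold change 0.066, SE 0.052, adjusted p = 0.619). Insig1, itself a target of SREBP, fell from 269 and 277 CPM to 214 and 205 CPM and 214 and 235 CPM (log2 fold change -0.33, SE 0.05, adjusted p = 0.0016). The 95% intervals of the log2 fold change were -0.18 to -0.037 for Srebf2 and -0.036 to 0.17 for Srebf1. Taken singly, shRNA2 gave -0.12 for Srebf2, which passed (adjusted p = 0.0368 in edgeR), and shRNA1 -0.11, which did not (adjusted p = 0.0586). Of the 8 fatty acid genes 4 fell and 0 rose, namely Acly (-0.37, adjusted p = 0.000185), Scd1 (-0.27, adjusted p = 0.00503), Fads2 (-0.18, adjusted p = 0.0149) and Fads1 (-0.16, adjusted p = 0.027, edgeR), with a median of -0.19. Fasn passed with shRNA1 taken singly (-0.39, adjusted p = 5.8e-07) and not with shRNA2 (-0.059, adjusted p = 0.45, edgeR). Scd2 likewise passed with shRNA1 (-0.24, adjusted p = 4.6e-06) and not with shRNA2 (-0.075, adjusted p = 0.15, edgeR). Elovl6 passed with each (-0.77, adjusted p = 3.18e-11 and -0.18, adjusted p = 0.0281, edgeR). Stard4 fell too (-0.31, adjusted p = 0.00153). Of the 38 further lipid genes tested, 2 rose and 7 fell, with a median of -0.067. Vldlr was one of those that rose (log2 fold change 0.58, adjusted p = 0.000412 in edgeR), and among those that fell were Scarb1, which takes up cholesterol from high density lipoprotein (log2 fold change -0.30, adjusted p = 0.000944), and Acss2, which makes acetyl-CoA from acetate (log2 fold change -0.37, adjusted p = 0.00133).

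Proliferation markers fell with the sterol enzymes. Their sum was 2158 ± 25.0 CPM in the control, 1780.5 ± 15.6 CPM with shRNA1 and 1882 ± 73.8 CPM with shRNA2, and 6 of 9 fell with 0 risen (median -0.21). HSC markers had 0 risen and 1 fallen of 8. Whether the proliferation genes bear on the sterol genes was not tested.

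**Figure D2:**
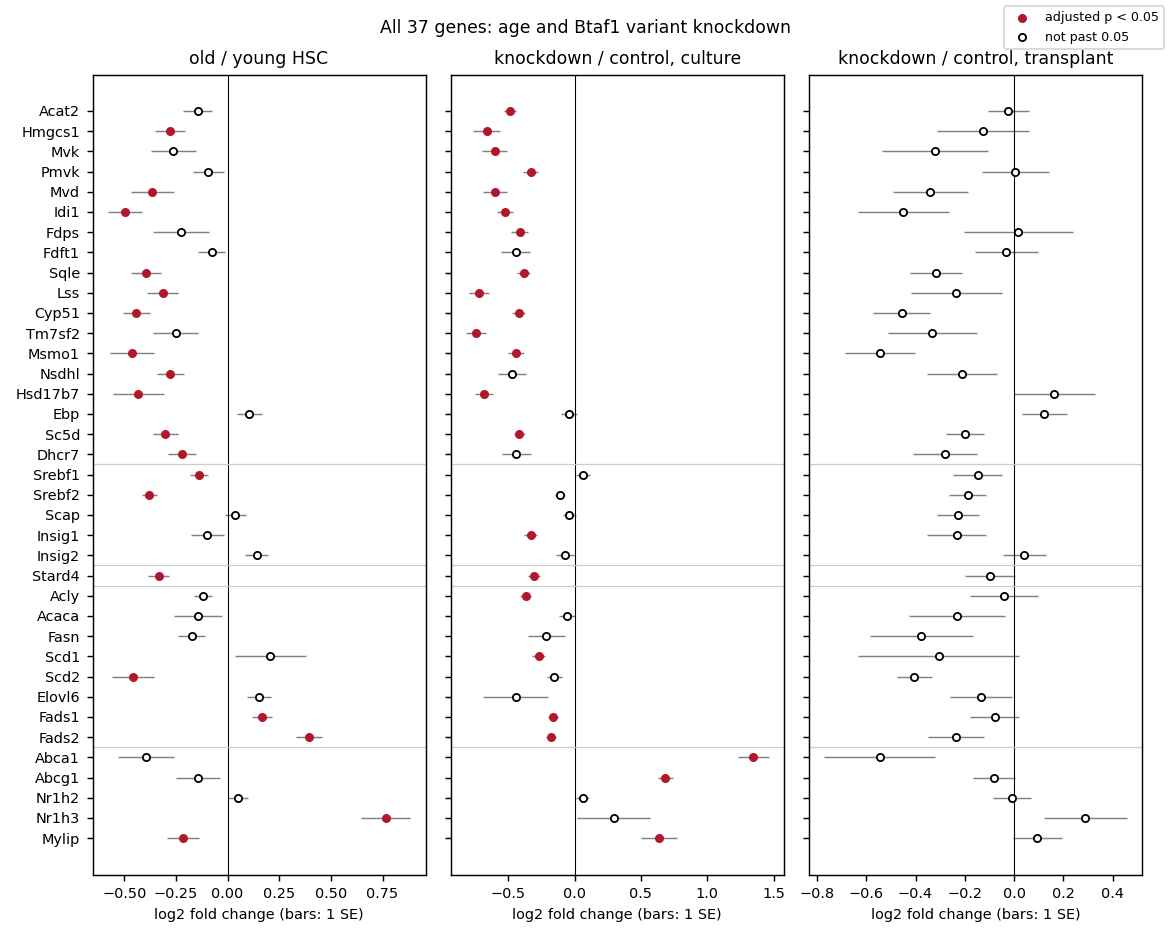
Log2 fold change of each of the 37 genes (points, with bars of 1 SE) for old against young HSCs, knockdown in culture and knockdown after transplantation, ordered by role, with filled points past an adjusted p of 0.05 in edgeR. In culture the sterol enzymes lie left of 0, down to -0.74 for Tm7sf2, and Abca1, Abcg1 and Mylip lie right of 0, up to 1.35, while after transplantation no point is filled.

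The same knockdown was then compared in HSCs recovered from transplanted mice. Btaf1 was between 158 and 164 CPM in the 2 controls, 129 and 136 CPM with shRNA1 and 116 and 118 CPM with shRNA2. No gene of the 37 passed in either direction, and neither did any of the 20350 genes tested (0% higher and 0% lower in edgeR). The lowest adjusted p among the 37 was 0.791. At an unadjusted p below 0.05 there were 0 higher and 9 lower among the 37 genes, and 5.59% of all genes in either direction. DESeq2 called 0 of the 37 higher, against 0.211% of the 17971 genes to which it gave an adjusted p, and 1 lower, against 0.122%, namely Scd2 (log2 fold change -0.40, SE 0.084, adjusted p = 0.00364). In all, 30 of the 37 log2 fold changes were negative, with a median of -0.20 and of -0.22 over the sterol enzymes, beside 0.0021 over all genes.

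Srebf2 read 323 and 333 CPM in transplanted controls, 294 and 298 CPM with shRNA1 and 256 and 305 CPM with shRNA2 (log2 fold change -0.19, SE 0.075, adjusted p = 0.864). Insig1 read 54.3 and 49.0 CPM, 39.3 and 39.9 CPM and 45.5 and 51.5 CPM (log2 fold change -0.23, SE 0.12, adjusted p = 0.9), and Srebf1 78.9 and 87.8, 64.6 and 77.8 and 77.5 and 81.5 CPM (log2 fold change -0.15, SE 0.10, adjusted p = 0.929). On the log2 scale the 95% interval was -0.64 to -0.043 for Mvd and -0.60 to 0.13 for Lss, beside -0.60 and -0.72 in culture. These intervals rest on a normal quantile and are narrow for so few libraries. They do not settle whether either gene differed from culture. Summed sterol enzymes were at 591 ± 31.0 CPM in the controls, 475 ± 16.4 CPM with shRNA1 and 543 ± 6.05 CPM with shRNA2. Erythroid, myeloid and macrophage markers had medians of 0.71, 0.84 and 0.68 in the same fit, none of them past the test. Proliferation markers, lower after knockdown in culture, had a median of 0.25 here with 9 of 9 above 0, none past the test, and summed to 571 ± 127 CPM in the controls, 743 ± 2.36 CPM with shRNA1 and 629 ± 25.5 CPM with shRNA2.

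A term for the difference of the knockdown effects asked which genes answered differently in culture and after transplantation. It called 2 of the 37 genes higher, where 0.107% of 21443 genes were called, and 1 lower, where 0.103% were. Abca1, which had risen in culture, read 47.2 and 76.1 CPM in transplanted controls, 42.8 and 53.6 CPM with shRNA1 and 30.9 and 41.8 CPM with shRNA2, a difference of effects of 1.89 (SE 0.31, adjusted p = 0.0433 in edgeR). Abcg1 read 50.7 and 46.1 CPM in transplanted controls, 48.2 and 45.9 CPM with shRNA1 and 45.8 and 43.5 CPM with shRNA2, with a difference of 0.77 (SE 0.093, adjusted p = 0.00845). Hsd17b7, which had fallen in culture, read 9.11 and 8.53 CPM in transplanted controls, 10.1 and 8.04 CPM with shRNA1 and 10.7 and 10.8 CPM with shRNA2, with a difference of -0.85 (SE 0.15, adjusted p = 0.0433). These calls depended on single libraries: without either cultured control 0 were higher and 0 lower, and without transplanted shRNA1 replicate 2 there were 2 and 2. The differences themselves ranged from 1.51 to 2.20 for Abca1, 0.69 to 0.83 for Abcg1 and -0.94 to -0.80 for Hsd17b7 as each library was left out. For Hmgcs1 and Lss the difference did not pass (-0.54, adjusted p = 0.605 and -0.48, adjusted p = 0.581 in edgeR), and for Srebf2 its 95% interval was -0.092 to 0.25.

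**Figure D3:**
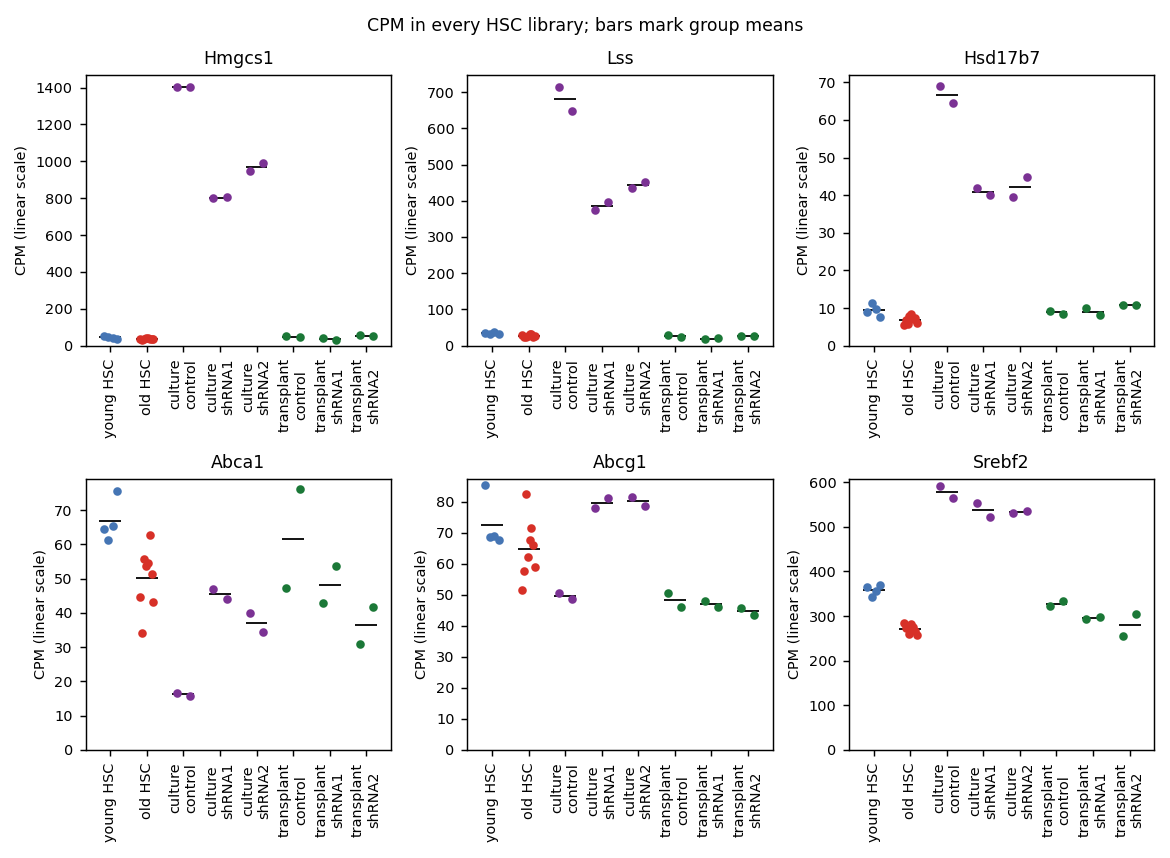
CPM (vertical axes, linear) of 6 genes in every HSC library, with a point for each library and a bar at each group mean. Hmgcs1, Lss and Hsd17b7 are highest in the cultured controls and lower in all 4 cultured knockdown libraries, Abca1 is lowest in the cultured controls at 16.2 CPM, and Srebf2 is lower in all 8 old than in all 4 young libraries.

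Culture itself was set against transplantation using the control shRNA, since the sterol enzymes stood so far apart in the 2 settings. These cultured controls are the same libraries as in the knockdown comparison, so a direction here and there is not independent. All 18 sterol enzymes were higher in culture (median log2 fold change 3.28, against -0.033 over all genes), as were all 8 fatty acid genes (median 2.12) and 3 of the 5 SREBP genes, while 3 of the 5 LXR and efflux genes were lower and 0 were higher. Over the 37 genes 30 were higher, against 19.9% of 21443 genes, and 3 lower, against 20.9%. Hmgcs1 read 1402 and 1401 CPM in culture and 51.7 and 46.7 CPM after transplantation (log2 fold change 4.82, SE 0.24, adjusted p = 1.94e-07), and Lss 714 and 649 against 29.9 and 23.4 CPM (log2 fold change 4.67, SE 0.21, adjusted p = 2.68e-08). Scd1, the desaturase of liver and fat, had the largest difference, at 278 and 262 CPM against 5.47 and 5.00 CPM (log2 fold change 5.68, SE 0.29, adjusted p = 1.52e-07). Fdps read 85.9 and 85.9 against 3.48 and 4.24 CPM (log2 fold change 4.47, SE 0.15, adjusted p = 2.56e-11), Mvd 130.2 and 123 against 8.50 and 7.90 CPM (log2 fold change 3.94, SE 0.12, adjusted p = 1.43e-11) and Msmo1 799 and 771 against 62.2 and 49.8 CPM (log2 fold change 3.80, SE 0.16, adjusted p = 3.98e-09). For these genes no library of one setting came near the other.

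On the side of efflux, Abca1 was at 16.6 and 15.8 CPM in culture and 47.2 and 76.1 CPM after transplantation (log2 fold change -1.93, SE 0.26, adjusted p = 0.000111). Nr1h3 read 1.84 and 1.83 against 5.00 and 5.43 CPM (log2 fold change -1.51, SE 0.27, adjusted p = 0.000377) and Mylip 13.1 and 10.3 against 21.9 and 21.3 CPM (log2 fold change -0.89, SE 0.14, adjusted p = 0.000162). Abcg1 and Nr1h2 did not pass (95% intervals of the log2 difference -0.12 to 0.18 and -0.16 to 0.12). Srebf2 was higher in culture (log2 fold change 0.81, SE 0.071, adjusted p = 5.59e-07), Srebf1 likewise (log2 fold change 1.34, SE 0.10, adjusted p = 1.1e-07), and Insig1 by more, at 269 and 277 against 54.3 and 49.0 CPM (log2 fold change 2.39, SE 0.11, adjusted p = 1.36e-09), whereas Scap and Insig2 lay at 0.21, adjusted p = 0.0637 and 0.051, adjusted p = 0.652 and did not pass in edgeR. Of 38 further lipid genes 22 were higher and 4 lower (median 0.53). Proliferation markers were higher in culture for 9 of 9, summing to 2158 ± 25.0 CPM against 571 ± 127 CPM. Macrophage markers summed to 16.5 ± 1.57 CPM against 24.4 ± 2.18 CPM. Of the 6 macrophage markers 4 were lower in culture, and those 4 (C1qa, C1qb, Adgre1 and Vcam1) had 0 reads in the cultured controls. HSC markers were lower in culture for 5 of 8, all by more than 1.5-fold, at 2438 ± 39.1 CPM against 4039 ± 90.2 CPM, and megakaryocyte markers were higher for 3 of 5, at 1397 ± 20.6 CPM against 528 ± 128 CPM. The part of these lists in the lipid genes was not tested.

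Against freshly sorted old HSCs the cultured controls gave a like picture, with kit and run confounded. All 18 sterol enzymes were higher (median 3.56) beside a median of -0.26 over all genes tested, all 8 fatty acid genes were higher (median 2.10), as were 4 of 5 SREBP genes, and 1 LXR gene was higher and 4 were lower. In total 32 of the 37 were higher, against 31.5% of 23418 genes, and 4 lower, against 44.7%. Hmgcs1 had the largest difference, from 30.2 to 40.3 CPM, median 36.5, in fresh cells to 1402 and 1401 CPM (log2 fold change 5.28, SE 0.06, adjusted p = 7.59e-24). Scd1 was at 7.48 to 13.3 CPM, median 9.31, against 278 and 262 CPM (log2 fold change 4.75, SE 0.15, adjusted p = 1.05e-09). Next came Lss, from 23.9 to 31.8 CPM, median 27.2, in fresh cells (log2 fold change 4.63, SE 0.075, adjusted p = 1.12e-17), then Msmo1 (log2 fold change 4.46, SE 0.12, adjusted p = 4.02e-10), Cyp51 (log2 fold change 4.41, SE 0.066, adjusted p = 6.12e-20) and Idi1, at 215 and 210.4 CPM in culture (log2 fold change 4.37, SE 0.062, adjusted p = 3.62e-24). Lss, Msmo1, Cyp51 and Idi1 act after mevalonate, while Hmgcs1 acts before it. The 4 lower genes were Nr1h3 (-2.11, adjusted p = 6.85e-11), Abca1 (-1.62, adjusted p = 7.64e-05), Mylip (-1.33, adjusted p = 1.42e-10) and Abcg1 (-0.38, adjusted p = 0.0268, edgeR). Srebf2 (log2 fold change 1.10, SE 0.045, adjusted p = 8.88e-16), Srebf1 (log2 fold change 1.47, SE 0.049, adjusted p = 1.44e-17) and Insig1 (log2 fold change 2.62, SE 0.083, adjusted p = 1.43e-13) were higher. HSC markers were lower for 8 of 8, macrophage markers for 5 of 6 and B-cell markers for 5 of 5, and proliferation markers were higher for 9 of 9, and their part was not tested.

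The progenitor comparisons asked how the pathway is set in cells that have left the stem cell stage. MEP, the forerunners of red cells and platelets, differed from CMP in sterol and desaturase genes in both directions. Over the 37 genes 13 were higher in MEP, against 28.9% of 18234 genes, and 12 lower, against 35.6%, so the shares are near those of all genes and only the identity of the genes is described. Sterol enzymes had 8 higher and 3 lower of 18 (median 0.13, against -0.066 over all genes), and without MEP replicate 2 only 1 was lower. Lss read 22.2 and 23.1 CPM in CMP and 51.5 and 44.1 CPM in MEP (log2 fold change 1.07, SE 0.11, adjusted p = 2.11e-06), Pmvk 19.3 and 18.2 and 46.9 and 38.1 CPM (log2 fold change 1.16, SE 0.12, adjusted p = 2.06e-06), Idi1 18.5 and 17.2 and 35.4 and 31.4 CPM (log2 fold change 0.89, SE 0.12, adjusted p = 2.37e-05) and Sqle 70.9 and 67.1 and 131 and 124 CPM (log2 fold change 0.87, SE 0.084, adjusted p = 7.29e-07). Against these, Hmgcs1 fell from 74.4 and 67.5 to 24.5 and 25.8 CPM (log2 fold change -1.51, SE 0.088, adjusted p = 4.09e-09) and Mvd from 5.48 and 6.31 to 4.10 and 3.11 CPM (log2 fold change -0.72, SE 0.22, adjusted p = 0.0106). The enzymes of 1 pathway therefore did not move together between these cells.

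Among desaturases Scd1 set MEP apart. It was counted with 2 and 4 reads in the CMP libraries, 3 and 4 in the GMP libraries and 650 and 440 in the MEP libraries, the last at 22.6 and 15.4 CPM. With so few reads in CMP and GMP the fitted fold is no bound, and the difference was called (adjusted p = 8.86e-10 against CMP and 1.38e-09 against GMP, edgeR). Scd2, its relative, did not pass (-0.63, adjusted p = 0.21 in edgeR). Fads2 read 88.5 and 67.8 CPM in CMP, 22.4 and 17.9 CPM in GMP and 349 and 348 CPM in MEP (log2 fold change 2.14, SE 0.13, adjusted p = 4.69e-06 for MEP against CMP). Fads1 followed at 83.5 and 68.6, 36.4 and 37.2 and 133 and 126 CPM. For both Fads genes MEP was highest and GMP lowest, without overlap.

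LXR and efflux genes were low in MEP. Against CMP 4 of the 5 fell, all by more than 1.5-fold, and none rose. Abcg1 read 42.0 and 35.0 CPM in CMP and 1.53 and 0.559 CPM in MEP (log2 fold change -5.21, SE 0.32, adjusted p = 2.64e-07), Abca1 32.7 and 20.9 and 6.81 and 3.07 CPM (log2 fold change -2.45, SE 0.40, adjusted p = 0.00132) and Mylip 14.4 and 15.3 and 5.25 and 5.69 CPM (log2 fold change -1.46, SE 0.16, adjusted p = 2.97e-06). Without MEP replicate 1 the log2 fold change was -6.12 for Abcg1 and -3.15 for Abca1. Nr1h3 was counted with 68 and 45 reads in CMP and 2 and 2 in MEP (adjusted p = 1.58e-05 in edgeR), while Nr1h2 did not pass (-0.013, adjusted p = 0.873). The SREBP genes went apart: Srebf1 rose from 101 and 84.7 to 175 and 166 CPM (log2 fold change 0.87, SE 0.084, adjusted p = 1.25e-06), Srebf2 fell from 176 and 172 to 110.2 and 103 CPM (log2 fold change -0.72, SE 0.061, adjusted p = 2.05e-07) and Insig1, at 22.8 and 18.2 and 18.9 and 19.9 CPM, did not pass (log2 fold change -0.093, SE 0.15, adjusted p = 0.604). Of the markers of the sort label, the erythroid ones were higher in MEP for 5 of 5, but the megakaryocyte ones were lower for 5 of 5, all by more than 1.5-fold, summing to 40.3 ± 1.43 CPM in MEP and 654 ± 7.23 CPM in CMP. Myeloid markers were lower in MEP for 5 of 5 and macrophage markers for 6 of 6. HSC markers were lower for 8 of 8, all by more than 1.5-fold, and proliferation markers were higher for 7 of 9 and lower for 2. The part of these lists in the lipid genes was not tested.

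GMP, the forerunners of granulocytes and monocytes, were also set against CMP. There were 7 higher, against 18.8% of all genes, and 8 lower, against 16%, and 22 did not pass, so these shares too are near those of all genes. The count of higher genes was 4 without CMP replicate 2 and 3 without GMP replicate 1. Fdps read 12.7 and 7.56 CPM in CMP and 19.7 and 16.7 CPM in GMP (log2 fold change 0.88, SE 0.23, adjusted p = 0.01) and Mvd 5.48 and 6.31 and 11.5 and 9.57 CPM (log2 fold change 0.87, SE 0.21, adjusted p = 0.00513), the 2 that rose by more than 1.5-fold. The call of Fdps was lost without CMP replicate 2 (log2 fold change 0.55) or GMP replicate 1 (0.75). Ebp (0.47, adjusted p = 0.000198), Acaca (0.45, adjusted p = 0.00374), Nsdhl (0.35, adjusted p = 0.0197) and Sc5d (0.34, adjusted p = 0.0451) rose by less, and so did Scap (0.28, adjusted p = 0.00146, edgeR). The log2 fold change of Sc5d ranged from 0.16 to 0.49 as each library was left out. Abca1 fell to 5.61 and 3.95 CPM (log2 fold change -2.44, SE 0.40, adjusted p = 0.0033), Fads2 fell (log2 fold change -1.92, SE 0.15, adjusted p = 7.15e-05), Abcg1 read 16.5 and 12.1 CPM (log2 fold change -1.39, SE 0.24, adjusted p = 0.00148), and Fads1 (log2 fold change -1.01, SE 0.09, adjusted p = 2.45e-06), Stard4 (log2 fold change -0.89, SE 0.12, adjusted p = 0.000102) and Srebf2 (log2 fold change -0.67, SE 0.061, adjusted p = 2.71e-06) also fell. Srebf1 and Insig1 did not pass (-0.14, adjusted p = 0.234 and 0.13, adjusted p = 0.537, edgeR). Lanosterol synthase was the 1 sterol enzyme lower in GMP (-0.59, adjusted p = 0.00183), and 3 were lower without GMP replicate 1. Myeloid markers were higher in GMP for 5 of 5 and proliferation markers for 8 of 9, while erythroid markers were lower for 5 of 5, megakaryocyte markers for 5 of 5 and HSC markers for 7 of 8. Their part in the lipid genes was not tested.

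MEP against GMP repeated the contrast of the Fads genes, Abcg1, Mylip and Nr1h3, using the same libraries, but not that of Abca1. The last read 5.61 and 3.95 CPM in GMP and 6.81 and 3.07 CPM in MEP and did not pass. In MEP 12 of the 37 genes were higher, against 27.7% of all genes, and 11 lower, against 33.7%. Beside Scd1 and Fads2 (log2 fold change 4.06, SE 0.15, adjusted p = 2.37e-07), Fads1 (log2 fold change 1.77, SE 0.091, adjusted p = 1.17e-09), Lss (log2 fold change 1.65, SE 0.12, adjusted p = 3.57e-08), Pmvk (log2 fold change 1.13, SE 0.13, adjusted p = 3.09e-06) and Sqle (log2 fold change 1.08, SE 0.085, adjusted p = 9.6e-08) were higher. Lower in MEP were Abcg1 (log2 fold change -3.82, SE 0.33, adjusted p = 3.69e-06), Hmgcs1 (log2 fold change -1.60, SE 0.088, adjusted p = 2.16e-09), Mvd (log2 fold change -1.59, SE 0.22, adjusted p = 2.21e-05), Fdps (log2 fold change -1.28, SE 0.23, adjusted p = 0.000417) and Mylip (log2 fold change -1.25, SE 0.16, adjusted p = 1.54e-05), and Nr1h3 was again near 0. Srebf1 was higher (1.01, adjusted p = 3.3e-07), and Srebf2 (-0.045, adjusted p = 0.555) and Insig1 (-0.23, adjusted p = 0.206) did not pass in edgeR. Sterol enzymes as a group were divided, with 7 higher and 5 lower of 18 (median -0.069). Without MEP replicate 1 the log2 fold change of Abcg1 was -4.73. Among markers, erythroid ones were higher in MEP for 5 of 5 and megakaryocyte ones for 3 of 5 with 1 lower, and myeloid ones were lower for 5 of 5 and macrophage ones for 6 of 6, and their part was not tested.

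**Figure D4:**
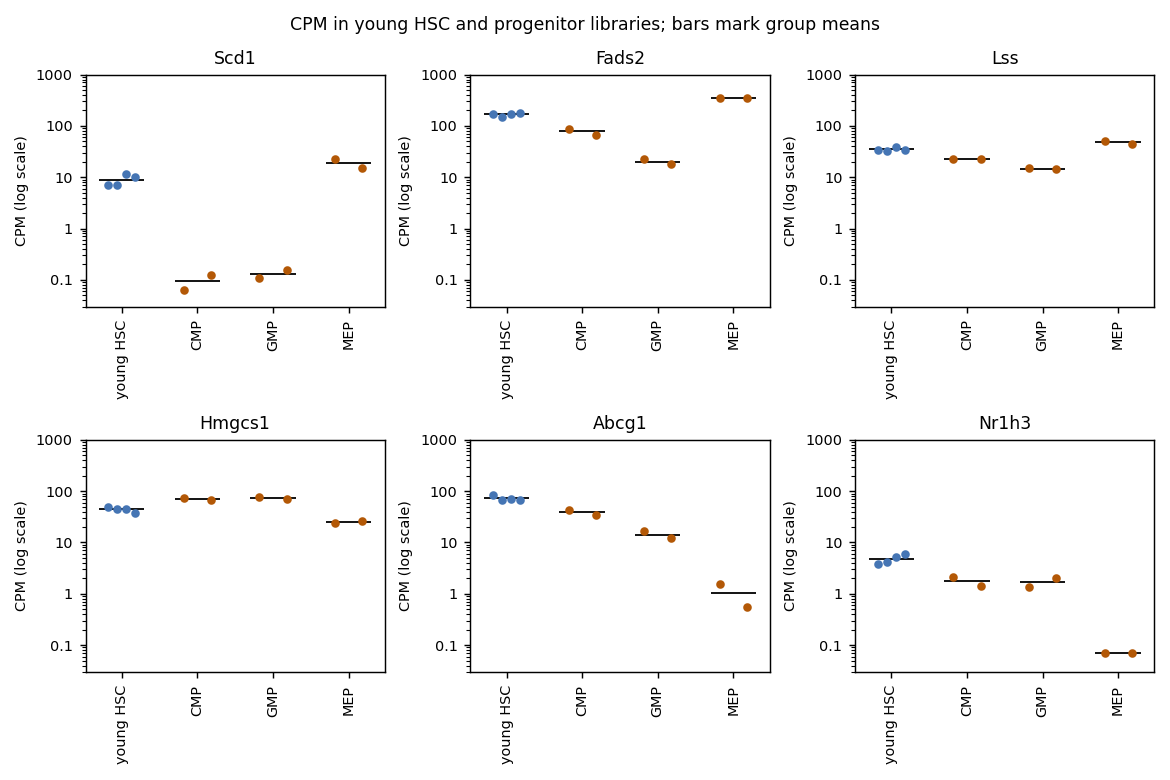
CPM (vertical axes, logarithmic) in every library of young HSC, CMP, GMP and MEP for genes of desaturation, efflux and sterol synthesis, with a point for each library. Fads2 is highest in MEP (mean 348 CPM) and lowest in GMP (20.1 CPM), Scd1 is near 0 in CMP and GMP, and Abcg1 and Nr1h3 are lowest in MEP.

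Young HSCs were last set against CMP. The median over all genes tested was 0.33 in this fit, and proliferation markers were lower in HSCs for 9 of 9, at 212 ± 14.3 CPM against 2342 ± 2.11 CPM. Depth also differed, with 35675043 to 36510850 reads in the CMP libraries and 20475764 to 24122404 in the young HSC libraries, and batch and cell type cannot be told apart. Of the 37 genes 16 were higher in HSCs, against 47.6% of 22360 genes, and 13 lower, against 33.5%. Sterol enzymes leaned lower, with 5 higher and 9 lower of 18 (median -0.25), and 4 of the 5 LXR and efflux genes were higher (median 1.23). HSC markers were higher in HSCs for 8 of 8 and B-cell markers for 4 of 5, myeloid markers were lower for 5 of 5, and macrophage markers were higher for 4 of 6 and lower for 2. The part of these lists was not tested. Scd1 was counted with 187, 169, 287 and 273 reads in the young HSC libraries against 2 and 4 in CMP (adjusted p = 7.93e-11 in edgeR), so that it was found in HSCs and MEP and at no more than 4 reads in any CMP or GMP library. Abca1 read 64.6, 61.4, 65.5 and 75.5 CPM in HSCs and 32.7 and 20.9 CPM in CMP (log2 fold change 1.31, SE 0.19, adjusted p = 0.000784), Mylip 40.1, 28.3, 35.4 and 36.2 and 14.4 and 15.3 CPM (log2 fold change 1.23, SE 0.11, adjusted p = 2.85e-08), Nr1h3 3.82, 4.16, 5.22 and 5.86 and 2.12 and 1.41 CPM (log2 fold change 1.42, SE 0.24, adjusted p = 3.88e-05) and Insig1 53.2, 48.0, 49.2 and 43.4 and 22.8 and 18.2 CPM (log2 fold change 1.24, SE 0.10, adjusted p = 6.02e-09).

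Srebf2 was among the higher genes, at 364, 342, 355 and 369 CPM in HSCs and 176 and 172 CPM in CMP (log2 fold change 1.03, SE 0.042, adjusted p = 1.07e-13), and Fads1 another (log2 fold change 1.30, SE 0.085, adjusted p = 2.37e-08), while Srebf1 did not pass (-0.11, adjusted p = 0.111 in edgeR). Lower in HSCs were Ebp, at 26.2, 25.4, 26.3 and 26.1 CPM against 62.9 and 60.6 CPM (log2 fold change -1.25, SE 0.067, adjusted p = 5.94e-12), Fdps (log2 fold change -0.95, SE 0.19, adjusted p = 0.000196, and from -1.28 to -0.54 as each library was left out), Acly (log2 fold change -0.84, SE 0.047, adjusted p = 1.07e-11), Hmgcs1 (log2 fold change -0.68, SE 0.088, adjusted p = 5.62e-06), Mvk (log2 fold change -0.65, SE 0.15, adjusted p = 0.000721) and Fasn, the fatty acid synthase (log2 fold change -0.65, SE 0.044, adjusted p = 2.03e-10). Summed sterol enzymes ranged from 517 to 572 CPM in young HSCs and from 565 to 617 CPM in CMP, so the sums overlapped while single enzymes went both ways. The direction of the sum depended on the scaling, since with libraries scaled to their total reads instead of by TMM it was 620.1 CPM in young HSCs and 524 CPM in CMP on average.

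Chromatin at the promoters was compared between old and young HSCs to see whether the fall in mRNA had a counterpart there. ATAC-seq held 41 promoter regions, covering all 37 genes (1000 bases before to 100 after a start), with 15427933 to 26260337 reads counted per library. Accessibility leaned lower in old HSCs, with 36 of 41 log2 fold changes (87.8%) below 0 and a median of -0.18, beside 78.8% and -0.13 over all 15913 promoter regions tested. Of the 41, 0 were higher and 1 was lower by more than 1.5-fold at an adjusted p below 0.01, where 10.1% and 2.9% of all 89245 regions and 1.92% and 2.07% of the promoter regions were called, and at an adjusted p below 0.05 with no minimum fold 24 were lower, as were 15.3% of all regions and 36.3% of the promoter regions, and 0 were higher, against 18.4% and 5.56%. The region called was at Hsd17b7 (chr1:169968878-169969749, mm10), which spans the promoter printed above. It read 69.7, 75.9, 66.7 and 65.9 CPM in the young and 43.7, 44.5, 46.7 and 48.4 CPM in the old libraries, with no overlap (log2 fold change -0.59, SE 0.05, adjusted p = 1.66e-14 in edgeR). Without young replicate 2, old replicate 5 or old replicate 6, 0 regions were lower by that rule. The same gene was lower in mRNA with age (-0.43). Next in size was Fads1, whose mRNA had risen while its promoter region (chr19:10182202-10183805) read 52.7, 53.6, 52.3 and 52.5 CPM in young and 40.5, 34.8, 41.8 and 41.5 CPM in old HSCs (log2 fold change -0.41, SE 0.053, adjusted p = 1.25e-08). At Hmgcs1 (chr13:119689845-119690993) the region read 123, 123, 122 and 117 CPM against 101, 108, 99.7 and 114 CPM (log2 fold change -0.19, SE 0.041, adjusted p = 0.000156). Srebf2, whose mRNA had fallen, did not pass in accessibility, with 23.4, 25.3, 24.8 and 24.1 CPM in young and 25.4, 22.2, 21.5 and 24.9 CPM in old HSCs (log2 fold change -0.049, SE 0.069, adjusted p = 0.631).

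H3K27ac was compared without a test, with 2 libraries at each age in a signal that the authors scaled to a fixed number of reads. The 40 promoter peaks covered 36 of the genes. In 29 of 40 (72.5%) the ratio of old to young was below 1, against 55.8% of 15417 promoter peaks, with a median log2 ratio of -0.14 against -0.030. By a ratio above 1.5 that holds at 1.2 or more in each pairing of libraries, 0 were higher (2.54% of all promoter peaks) and 2 were lower (1.02%). Single libraries decide these counts, which were 3 higher and 3 lower without young replicate 1, 1 and 1 without old replicate 1, and 0 and 5 without old replicate 2. With all libraries, the peaks called were 1 of the 2 peaks of Fasn, with signals of 5.62 and 5.94 in young and 3.76 and 3.32 in old HSCs (ratio 0.612), and the peak of Scd2, with 2.80 and 2.55 and 1.56 and 1.91 (ratio 0.648). Scd2 was thus lower in mark and in mRNA, and Fasn in mark with an mRNA that did not pass. At Srebf2 the signals were 3.66 and 3.88 in young and 3.98 and 4.09 in old HSCs (ratio 1.07), higher in both old libraries. Sterol enzymes had 15 of 18 peaks below 1 and a median of -0.17. In young HSCs alone, H3K4me3, a mark of active promoters, was present at 36 of the 37 genes with a median signal of 19.5 beside 18.1 over all promoter peaks, and the repressive mark H3K27me3 had a promoter peak at 2 of them, Scd1 and Nr1h3.

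**Figure D5:**
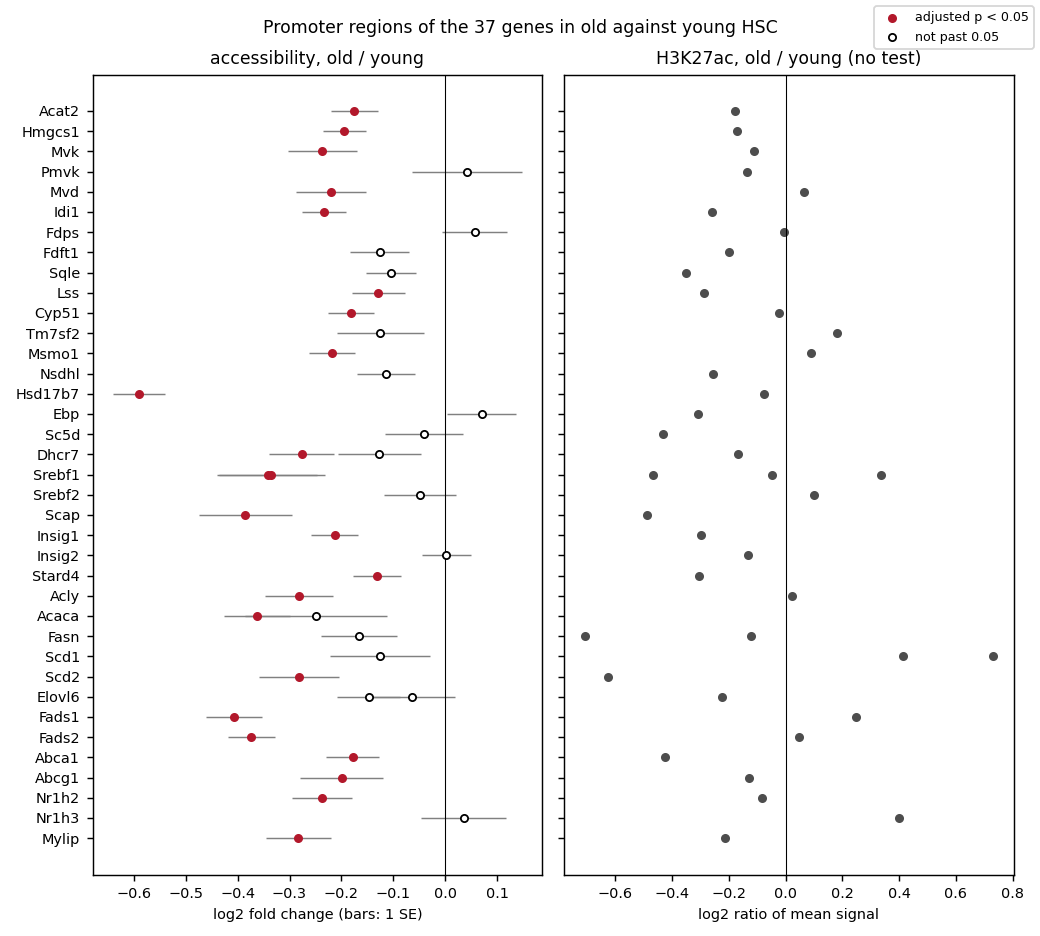
Difference between old and young HSCs at the promoter regions of the 37 genes: log2 fold change of ATAC-seq signal with bars of 1 SE (left, filled past an adjusted p of 0.05) and log2 ratio of mean H3K27ac signal with no test (right). Most points lie left of 0 in both panels, with Hsd17b7 farthest left in accessibility at -0.59 and a Fasn peak farthest left in H3K27ac.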

How the data were processed

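RNA was measured by mRNA-seq in 30 libraries of HSCs, cultured and transplanted HSCs and progenitors. The authors used trim galore with cutadapt, STAR against mm10 and featureCounts per gene on GENCODE M22, and deposited raw counts. Settings for strand and multi-mapped reads were not given in the sources used here. Raw counts per consensus region were deposited for ATAC-seq, after the authors had aligned reads with BWA and removed duplicates. For ChIP-seq they deposited a signal per peak from libraries scaled to a fixed number of reads. Spike-in RNAs (92) and 8 columns of per-sample values tied to no listed sample were not used, nor were the authors' fold change columns.

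Counts were filtered with filterByExpr, TMM-normalized and tested with the robust quasi-likelihood test of edgeR 4.0.16 in R 4.3.3, with Benjamini-Hochberg adjustment over all genes. Age was tested with 4 young against 8 old libraries, knockdown with 4 shRNA against 2 control libraries, and progenitors in 1 fit. Standard errors are those of the fit. ATAC-seq regions with over 1.5 CPM in at least 4 libraries were tested. H3K27ac was described without a test. Starts, promoters and exon lengths came from GENCODE M21 (GRCm38, the build of mm10), and promoter sequences from RefSeq. The fitting steps were tested on simulated counts. No pair of libraries within an mRNA-seq or ATAC-seq group agreed within sampling noise.

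The genes followed, the lists and the tests were chosen with earlier results of these data known. In each comparison the genes named with values in every library come from the 6 with the largest fold change in each direction among those called, plus Srebf1, Srebf2 and Insig1; other genes of the 37 are named with a fold change or p. Vldlr, Lpin1, Scarb1 and Acss2, outside the 37, were chosen after their values were seen. Alternatives were DESeq2 1.42.0, its size factors, no filter on low counts, a minimum fold of 1.5, a replicate block and leaving out each library.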

Additional observations from a re-analysis of the deposited data

Results flagged for a closer look

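A test for a library far from the rest of its group was made in 156 groups of 4 or 8 libraries and singled out 5, where chance gives about 1 in 20. Abcg1 was at 85.3 CPM in young HSC replicate 1 and between 67.7 and 68.9 CPM in the other young libraries. In young ATAC-seq libraries, the Hmgcs1 promoter region read 117.05 CPM in replicate 4 against 122 to 123 CPM in the others, and the Idi1 region 127 CPM in replicate 2 against 112 to 115 CPM. In old ATAC-seq libraries, a Srebf1 region read 9.002 CPM in replicate 8 against 8.69 to 8.72 CPM, and the Scap region 13.9 CPM in replicate 5 against 12.3 to 12.5 CPM. Their cause was not tested.

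The effect of knockdown differed between culture and transplantation, by the test of the difference itself in edgeR, for Abca1 (1.89 on the log2 scale, adjusted p = 0.0433), Abcg1 (0.77, adjusted p = 0.00845) and Hsd17b7 (-0.85, adjusted p = 0.0433). The labels name the same kit for both settings, and the part of other differences in preparation was not tested.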

How the results depend on the processing

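The limits are the few libraries: 2 controls in each shRNA experiment, 2 for each progenitor, and a test of differences in which single libraries decide calls. Requiring a fold above 1.5 as well left 1 higher and 0 lower with age, 6 lower in the cultured knockdown (also 6 at an unadjusted p below 0.05 with that fold), 7 lower in MEP against CMP, 2 higher in GMP against CMP and 6 lower in young HSCs against CMP. Without the 2 young libraries highest in B-cell markers, an alternative chosen after seeing the data that leaves 2 young libraries, 8 genes were lower with age. DESeq2 called 1 gene lower after knockdown in transplanted cells. For the difference of knockdown effects, DESeq2 and its size factors each called 2 genes lower, and no filter gave 1 higher and 2 lower. Replicate numbers shared between groups mark no stated pairing, and same-numbered libraries deviated together with correlations from -0.22 to 0.24. With the replicate number as a block 18 genes were lower in the cultured knockdown, and 1 was higher and 0 lower for the difference of effects. With the numbers of transplanted shRNA2 crossed, 0 were higher and 0 lower. For accessibility, 24 regions were lower at an adjusted p below 0.05 with no minimum fold, and for H3K27ac a ratio above 1.2 gave 2 higher and 11 lower peaks.

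When each library was left out, there were 9 to 21 lower genes in the cultured knockdown, 0 to 2 higher and 0 to 2 lower for the difference of effects, 3 to 7 higher in GMP against CMP, 0 to 1 lower regions of accessibility, and 0 to 3 higher and 1 to 5 lower H3K27ac peaks. Insig1 ranged from -0.26 to 0.056 in MEP against CMP and from -0.026 to 0.30 in GMP against CMP on the log2 scale, and Srebf1 from -0.24 to 0.0094 in young HSCs against CMP. None of these passed with all libraries. The cause of these shifts was not tested.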
